A study of Mus musculus with 12 samples.

Results

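The cells described here were sorted on day 6 of reprogramming as SSEA1+EpCAM+Sca1- and are labelled d6_Eff, for efficient. They were set against mouse embryonic fibroblasts (MEF), the somatic cells at the start of the course, so the comparison spans the whole distance that EpCAM+ cells had covered. It used 4 of the 12 poly-A RNA-seq libraries of the series, 2 per group, which were picked by their labels and by no measured value. The other 8 libraries, 2 per group, were SSEA1+EpCAM-Sca1+ cells of day 6 (d6_Ineff), SSEA1+CD73+Sca1- and SSEA1+CD73-Sca1+ cells of day 3 (d3_Eff and d3_Ineff) and induced pluripotent stem cells (iPSC). All 6 groups carry the strain label 129SV/Jae/C57BL6J. The reprogramming cultures that gave d6_Eff were kept in ES media with dox and AA, iPSC in ES media and MEF in MEF media, so medium, dox and reprogramming state cannot be told apart between d6_Eff and MEF. Cells were freed with trypsin, stained and sorted by flow cytometry. The labels used here name neither the construct that dox controls nor the cells it acts in, and do not say whether the 2 replicates of a group were separate cultures. The p-values therefore measure the spread between these samples, which may be technical.

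Forced expression of Oct4 (Pou5f1), Sox2, Klf4 and Myc turns fibroblasts into pluripotent cells over a period of weeks or less. Fibroblasts are mesenchymal cells: they secrete collagen-rich matrix, pull on it with actin fibres and hold the adhesion molecule N-cadherin. Pluripotent cells are epithelial, joined by E-cadherin and tight junctions, and divide fast. On the way, cells pass through a mesenchymal-to-epithelial transition, in which repressors such as Snai1, Snai2, Zeb1 and Zeb2 are lost and epithelial genes open, and the pluripotency network is completed only late.

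Levels are given as CPM, the gene's counts per 1000000 gene counts after TMM scaling, for replicates 1 and 2 in that order. CPM values depend on transcript length, so levels are compared between libraries and not between genes. A gene was called when edgeR's quasi-likelihood F-test on all 12 libraries gave a Benjamini-Hochberg adjusted p under 0.05 over the 16240 genes tested, and every adjusted p below comes from that fit. Log2 fold changes are d6_Eff over MEF unless another pair is named. Where 1 group held only a few counts, the size of a fold change rests on them more than its direction does: values with 1 library left out are given where they moved it by more than 1.5 times. With 1 to 3 counts in a group the ratio of the pooled counts is given instead, with its exact 95% interval, which covers counting error only. Where 1 group had no counts, "at least" marks a bound on the fold, taken against a floor of 3 pooled counts (0.113 CPM for MEF, 0.0760 CPM for d6_Eff).

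The d6_Eff libraries held 20730460 and 16255091 gene counts and the MEF libraries 20978376 and 9284060. Reads outside genes made up 8.78% and 24.1% of the uniquely placed reads in d6_Eff and 5.10% and 47.2% in MEF. The range elsewhere was 6.20% to 11.7%. Lars2 took 0.169% and 1.34% of gene counts in d6_Eff and 0.122% and 5.25% in MEF. MEF replicate 2 also held less of long genes: expressed genes were cut into 3 equal classes by exon length, and its log2 CPM minus that of MEF replicate 1 had a median of -0.68 in the longest and 0.33 in the shortest. The same differences between the d6_Eff replicates were within 0.04. Across genes, Pearson's r of log2 CPM between replicates was 0.968 in d6_Eff and 0.943 in MEF. The part of these differences in the results was not tested, and values without 1 library are given where they change a call. Reads were counted without regard to strand, so those of genes whose exons overlap a gene on the other strand cannot be assigned with certainty. Of the genes named below these are Atp5a1, Bmp4, Car9, Cbx7, Ccnd1, Ccnd3, Ccne2, Cebpb, Cox4i1, Crb3, Ctgf, Dact1, Dnmt3l, Esrp2, Fn1, Grhl2, Hif1a, Igf2, Igfbp7, Jund, Lin28a, Lsr, Mest, Ndufs1, Nfia, Nfix, Nnat, Ovol2, Pou5f1, Psph, Rb1, Shmt1, Shmt2, Slc2a1, Smarca2, Stat3, Tbx3 and Zeb2. Counts of Krt18 and Ldha, which have near-identical pseudogene copies, are uncertain for a like reason.

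The distance between 2 libraries was taken as the root mean square difference of their log2 CPM over the 16240 genes. It averaged 2.31 between d6_Eff and MEF over the 4 library pairs (2.14 to 2.45), against 0.882 within d6_Eff and 1.24 within MEF. The d6_Eff libraries lay 1.91 from iPSC (1.84 to 1.97), and the iPSC libraries 2.69 from MEF. All d6_Eff to MEF pairs were thus farther apart than all d6_Eff to iPSC pairs, and d6_Eff had moved a long way from MEF while a distance to iPSC remained. The distance within iPSC was 0.659, below that within MEF, and the part of this spread in the ranking was not tested. Without the second libraries of d6_Eff and MEF, the distances from d6_Eff were 2.14 to MEF and 1.87 to iPSC. The d6_Eff libraries were nearer to d6_Ineff (1.30) and d3_Eff (1.26) than to either end. Measured from MEF, the means were 2.03 for d3_Eff and 1.97 for d6_Ineff.

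**Figure D1:**
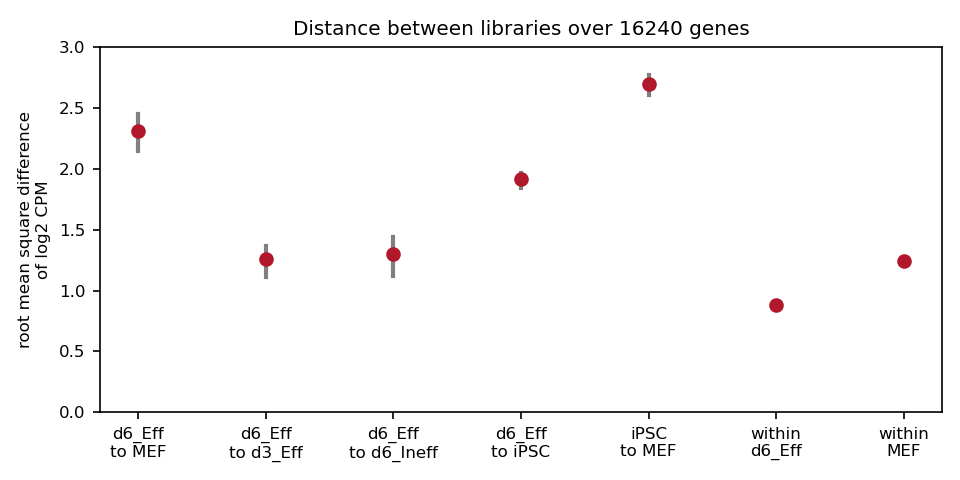
Root mean square difference of log2 CPM over 16240 genes for pairs of libraries, on a linear axis from 0; points are means over the library pairs and bars run from the lowest to the highest pair, while a within-group value is 1 pair. The d6_Eff to MEF mean of 2.31 lies above the d6_Eff to iPSC mean of 1.91 and below the iPSC to MEF mean of 2.69.

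Between d6_Eff and MEF, 3391 genes were called higher in d6_Eff (20.9% of those tested) and 3523 lower (21.7%). Of the called genes, 5589 differed by at least 1 on the log2 scale, 3140 by at least 2 and 1290 by at least 5, with 571 of the last higher and 719 lower. Of the genes called higher, 299 had no counts in MEF, and 294 of those called lower had none in d6_Eff. Both d6_Eff libraries lay above both MEF libraries in 33.8% of all genes tested and below both in 30.3%. Separate groups in a gene named below are therefore common and no evidence beyond its call. Side by side, d3_Eff against MEF gave 5935 calls (36.5%), d6_Ineff against MEF 5002 (30.8%) and iPSC against MEF 8557 (52.7%); these comparisons share the MEF libraries. Since RNA from a pool of cells was sequenced, fewer cells that hold a transcript and less of it per cell cannot be told apart in any value below. Without d6_Eff replicate 1 the count of higher genes was 2236, and in a fit of the 4 compared libraries alone it was 1607.

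**Figure D2:**
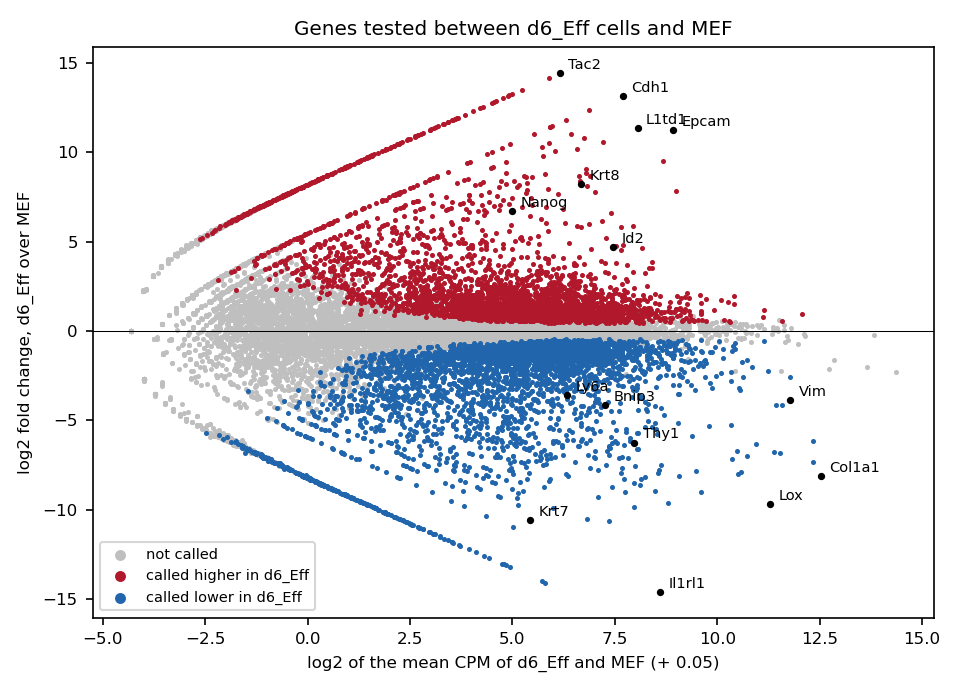
Log2 fold change of d6_Eff over MEF against the log2 of the mean CPM of both groups, 1 point per gene tested, with called genes coloured and 15 genes labelled. Curved edges on the upper and lower left hold genes with no counts in 1 group, whose fitted fold change depends on the prior count; Cdh1 and Epcam stand among the rises at high level and Lox and Col1a1 among the falls.

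The gate is seen in the transcripts of its surface proteins. Epcam, the gene of the epithelial adhesion molecule used for sorting, had 947 and 994 CPM in d6_Eff cells, against 0.568 and 0 CPM in MEF (log2 fold change 11.24 ± 0.45, SE, adjusted p = 4.14e-08, 17.21 without MEF replicate 1 and 10.62 without MEF replicate 2). Ly6a, which encodes Sca1, had 16.2 and 8.52 CPM in d6_Eff cells, against 112 and 186 CPM in MEF (log2 fold change -3.58 ± 0.33, SE, adjusted p = 8.95e-06, -4.26 without d6_Eff replicate 1). The groups did not overlap in either gene, but both follow from the sort and are no separate finding. Nt5e, the gene of CD73, which the day 6 gate did not use, was at 50.7 and 46.0 CPM in d6_Eff cells, against 33.3 and 26.4 CPM in MEF and missed the threshold (adjusted p = 0.102; adjusted p = 0.0380 without MEF replicate 1). Fut4, a fucosyltransferase gene linked to the SSEA1 carbohydrate, was at 4.28 and 2.82 CPM in d6_Eff cells, against 4.96 and 6.00 CPM in MEF (adjusted p = 0.231). Thy1, a fibroblast surface glycoprotein gene that no gate used, fell (log2 fold change -6.24 ± 0.47, SE, adjusted p = 1.99e-06, -7.29 without d6_Eff replicate 1) to 9.53 and 3.47 CPM in d6_Eff cells, against 579 and 413 in MEF.

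Epithelial genes beyond the gate were switched on from near nothing. Of 22 genes of epithelial adhesion and junctions, 20 rose and 2 fell (20.9% and 21.7% of all genes), with a median log2 fold change of 5.42 (5.19 with genes at 0 in 1 group set to their bound) beside 0.03 over all genes tested. Of 19 epithelial regulators and surface genes, 16 rose and none fell, with a median of 8.59 (7.97 with bounds). Cdh1, the gene of E-cadherin, had 394 and 431 CPM in d6_Eff cells, against 0 and 0.140 CPM in MEF (10887-fold higher, counting interval 1954 to 430020.5 on 1 count in MEF, adjusted p = 2.32e-08). Cldn7, a tight junction claudin gene, had 168 and 175 CPM in d6_Eff cells, against 0.103 and 0 CPM in MEF (2267-fold higher, counting interval 627 to 18722 on 2 counts in MEF, adjusted p = 3.31e-07). The related Cldn4 had 221 and 219 CPM in d6_Eff cells, against 0.671 and 0 CPM in MEF (log2 fold change 8.87 ± 0.47, SE, adjusted p = 1.91e-07, 15.07 without MEF replicate 1 and 8.24 without MEF replicate 2). In each of these 3 genes both d6_Eff libraries lay far above both MEF libraries. Cldn6 rose as well (3226-fold higher, counting interval 579 to 127437 on 1 count in MEF), as did the desmosome gene Dsp (6.93, or 14.10 without MEF replicate 1 and 6.23 without MEF replicate 2) and the tight junction gene F11r (2.66). Crb3, a polarity gene of the apical membrane, had 20.0 and 22.5 CPM in d6_Eff cells with none counted in MEF, at least 188-fold higher. Members that were already present in MEF moved least, among them the plakoglobin gene Jup at 316 and 321 CPM in d6_Eff cells, against 138 and 53.2 CPM in MEF (log2 fold change 1.73 ± 0.34, SE, adjusted p = 0.00188, 2.59 without MEF replicate 1 and 1.1 without MEF replicate 2).

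Among the regulators, Esrp1, which directs epithelial splicing, had 114 and 129 CPM in d6_Eff cells, against 0 and 0.140 CPM in MEF (3190.1-fold higher, counting interval 572 to 126029.7 on 1 count in MEF, adjusted p = 1.49e-06). Grhl2, a transcription factor of epithelial junction genes, had 53 and 62.0 CPM in d6_Eff cells, against 0.103 and 0 CPM in MEF (755-fold higher, counting interval 209 to 6234 on 2 counts in MEF, adjusted p = 5.59e-07). Ovol2, a repressor of mesenchymal genes, had 27.7 and 37.6 CPM in d6_Eff cells with none counted in MEF, at least 289-fold higher. No library of one group overlapped the other in these 3 genes. The protease gene St14 (matriptase) rose to 211 and 267 CPM in d6_Eff cells, against 0.826 and 0 in MEF, and its inhibitor genes Spint1 (8.69, or 10.41 without MEF replicate 1) and Spint2 (4.79) rose with it. Ap1m2, a subunit of the epithelial sorting adaptor, had 118 and 133 CPM in d6_Eff cells, against 0.0516 and 0 CPM in MEF (3306-fold higher, counting interval 593 to 130623 on 1 count in MEF, adjusted p = 7.08e-07). Esrp2 (7.80 and 5.81 CPM in d6_Eff cells, against 4.80 and 1.54 in MEF), Cd24a (415 and 369.7 against 259.9 and 453) and Ovol1 (0.445 and 0.235 CPM against no counts) were not called, although Cd24a was without MEF replicate 2 (adjusted p = 0.0363).

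The epithelial state was not reached by all members alike. The keratin gene Krt8 rose (log2 fold change 8.25 ± 0.45, SE, adjusted p = 2.61e-07) to 185 and 224 CPM in d6_Eff cells, against 0.516 and 0.977 in MEF, and its usual partner Krt18 rose less (log2 fold change 1.81 ± 0.30, SE, adjusted p = 5.46e-04). Krt7, another simple keratin gene, fell, with 0 and 0.117 CPM in d6_Eff cells, against 98.6 and 74.3 CPM in MEF (1817-fold lower, counting interval 503 to 15014 on 2 counts in d6_Eff, adjusted p = 6.67e-06). Krt19 was at 39.9 and 55.4 CPM in d6_Eff cells, against 43.6 and 56.3 CPM in MEF (adjusted p = 0.905). Gjb5, a connexin gene of gap junctions, had no counts in d6_Eff and 18.6 and 33.1 CPM in MEF, at least 340.0-fold lower. It stood high again in iPSC, at 35.7 and 34.5 CPM, and was higher in iPSC than in d6_Eff (adjusted p = 3.10e-06).

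The epithelial change also set d6_Eff apart from its EpCAM-Sca1+ counterpart of the same day and from d3_Eff. The d6_Ineff cells were sorted as EpCAM- and d6_Eff as EpCAM+, and EpCAM is itself an epithelial adhesion molecule. How far the difference from d6_Ineff follows from that sort was not tested. Of the 22 junction genes, 13 were higher and 1 lower in d6_Eff than in d6_Ineff (5.38% and 9.25% of all genes), and of the 19 regulators 15 were higher. Against d3_Eff, 14 junction genes and 13 regulators were higher (4.24% of all genes, and 9.11% in either direction) and none lower. Cldn7 had 168 and 175 CPM in d6_Eff and 0.985 and 0.479 CPM in d6_Ineff (log2 difference 7.91 ± 0.48, SE, adjusted p = 1.90e-05). Esrp1 had 0.579 and 0.279 CPM in d6_Ineff (log2 difference 8.19 ± 0.60, SE, adjusted p = 3.57e-05) and 1.04 and 0.728 CPM in d3_Eff (log2 difference 7.08 ± 0.56, SE, adjusted p = 3.96e-05), below both d6_Eff libraries in each. Ehf, an epithelial ETS factor gene, was different: it had 101 and 83.5 CPM in d6_Eff cells, against 0.0516 and 0 CPM in MEF (2481-fold higher, counting interval 445 to 98020.1 on 1 count in MEF, adjusted p = 9.72e-08) but was not called between d6_Eff and d6_Ineff (adjusted p = 0.320) or d3_Eff (adjusted p = 0.940). Over all genes, the counts called higher against d6_Ineff and d3_Eff moved with the library left out. Against d6_Ineff, 206 were called without d6_Ineff replicate 1, 257 without d6_Ineff replicate 2, 293 without d6_Eff replicate 1 and 255 without d6_Eff replicate 2. Without MEF replicate 1 or 2, which enter that comparison only through the shared spread, 2126 and 1971 were called. Against d3_Eff the counts were 328 to 430.0 without 1 of the compared libraries, and 1332 and 1308 without MEF replicate 1 or 2.

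The Snail and Zeb repressors of epithelial genes are known to bind E-boxes of the form CACCTG, which reads CAGGTG on the other strand. The promoters of the epithelial genes were searched for these letters on both strands. The promoters come from RefSeq on GRCm38.p6 and run from 250 bases before to 50 after the start site. Of 22 junction genes 13 were in the table. Of these, 10 held at least 1 match (76.9%) and 5 at least 2 (38.5%). Of 19 regulators 11 were in the table, with 8 holding at least 1 (72.7%) and 6 at least 2 (54.5%). Among 27025 genes in the table, 22.6% held at least 1 match and 3.32% at least 2. Shares above the background were also found in other lists: at least 1 match was held by 66.7% of matched keratins, 64.3% of pluripotency markers, 45.5% of hypoxia targets, 40.0% of naive and core factors and 37.5% of matrix crosslinkers, proteases and inhibitors. Most lists, the matrix ones included, had no matched gene with 2. The 4 promoters below are that of Epcam, the gate gene, and the 3 members with the most matches. Capitals mark the E-boxes, none of which overlap, and all are printed 5′ to 3′ on the gene's strand.
Epcam: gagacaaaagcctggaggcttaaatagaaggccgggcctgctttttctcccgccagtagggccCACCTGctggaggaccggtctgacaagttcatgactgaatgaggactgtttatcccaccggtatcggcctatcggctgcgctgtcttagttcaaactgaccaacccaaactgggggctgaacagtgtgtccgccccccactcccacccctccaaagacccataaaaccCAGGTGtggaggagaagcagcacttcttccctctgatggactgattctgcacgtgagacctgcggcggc
Ap1m2: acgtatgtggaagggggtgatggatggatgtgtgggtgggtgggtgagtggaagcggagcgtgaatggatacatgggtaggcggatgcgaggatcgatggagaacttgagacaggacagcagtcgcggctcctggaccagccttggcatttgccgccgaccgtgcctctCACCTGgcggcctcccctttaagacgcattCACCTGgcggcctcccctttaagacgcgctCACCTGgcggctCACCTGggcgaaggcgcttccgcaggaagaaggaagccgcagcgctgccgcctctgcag
Crb3: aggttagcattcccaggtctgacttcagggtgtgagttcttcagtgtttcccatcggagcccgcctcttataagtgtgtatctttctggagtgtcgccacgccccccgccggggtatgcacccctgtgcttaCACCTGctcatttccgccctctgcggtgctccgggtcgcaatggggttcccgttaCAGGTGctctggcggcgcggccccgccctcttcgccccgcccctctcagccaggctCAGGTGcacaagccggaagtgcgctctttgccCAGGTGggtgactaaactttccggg
Lsr: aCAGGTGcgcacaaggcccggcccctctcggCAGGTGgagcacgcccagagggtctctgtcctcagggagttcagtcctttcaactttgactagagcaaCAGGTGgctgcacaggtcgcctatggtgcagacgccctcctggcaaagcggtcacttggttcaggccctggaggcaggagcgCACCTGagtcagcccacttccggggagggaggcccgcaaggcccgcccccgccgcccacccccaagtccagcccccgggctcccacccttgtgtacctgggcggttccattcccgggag
Epcam's promoter lies at chr17:87635729-87636028 on the plus strand, that of Ap1m2 at chr9:21312284-21312583 on the minus strand, that of Crb3 at chr17:57061951-57062250 on the plus strand and that of Lsr at chr7:30973420-30973719 on the minus strand. Epcam holds 2 matches and each of the others 4. Lsr, a receptor gene of tricellular junctions, had 31.8 and 35.3 CPM in d6_Eff cells, against 0.155 and 0 CPM in MEF (295-fold higher, counting interval 101 to 1431 on 3 counts in MEF, adjusted p = 3.80e-06). A match is a description of these letters and shows neither binding nor a cause of the rise. The 4 shown have a GC content of 57.0% to 67.3%, and its part in the matches was not tested.

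Mesenchymal transcription factor genes fell between MEF and d6_Eff. Of 29 on the list, 27 passed the filter on low counts, and of these 23 fell and none rose (median log2 fold change -4.94, or -4.78 with bounds). Snai2 had 0.223 and 0 CPM in d6_Eff cells, against 64.8 and 75.7 CPM in MEF (log2 fold change -9.07 ± 0.95, SE, adjusted p = 2.09e-05, -13.46 without d6_Eff replicate 1 and -8.35 without d6_Eff replicate 2). Snai1 had 1.29 and 1.41 CPM in d6_Eff cells, against 68.5 and 48.0 CPM in MEF (log2 fold change -5.43 ± 0.51, SE, adjusted p = 8.63e-06). Zeb2 had 1.20 and 0 CPM in d6_Eff cells, against 54.8 and 29.7 CPM in MEF (log2 fold change -6.03 ± 0.93, SE, adjusted p = 3.38e-04, -12.72 without d6_Eff replicate 1 and -5.21 without d6_Eff replicate 2), while Zeb1 is listed at 0 in all 12 libraries and gives no value. Prrx1, a limb mesenchyme homeobox gene, was at 16.9 and 11.5 CPM in d6_Eff cells, against 544 and 629.6 CPM in MEF (log2 fold change -5.37 ± 0.28, SE, adjusted p = 2.06e-07). All 4 measured genes were lower in both d6_Eff libraries than in either MEF library, as were 30.3% of all genes. Others on the list had no counts in d6_Eff, among them Meox1, at 13.1 and 14.8 CPM in MEF and at least 184-fold lower (not called by DESeq2), and Osr1, at 57.3 and 28.6 CPM in MEF and at least 565-fold lower. Twist1 (-4.18), Runx1 (-4.94, or -6.06 without d6_Eff replicate 1) and Cebpb (-2.83) fell, whereas Nfia (adjusted p = 0.230), Nfib (adjusted p = 0.327), Nfix (adjusted p = 0.167) and Foxp1 (adjusted p = 0.312) were not called. Without MEF replicate 2, Nfix (adjusted p = 4.13e-07) and Foxp1 (adjusted p = 0.00141) were called lower. Without MEF replicate 1, Nfia (adjusted p = 0.00246) and Nfix (adjusted p = 0.0269) were called higher. Snai2, Twist1, Prrx1 and Runx1 were lower in d6_Eff than in d6_Ineff as well, 4 of the 13 members called so (none was higher). Against d3_Eff 10 members were lower (4.87% of all genes), Prrx1 among them (log2 difference -3.08 ± 0.26, SE, adjusted p = 5.58e-05). Snai2, at 2.69 and 0.884 CPM in d3_Eff, was lower too (adjusted p = 0.0355). Snai1 (2.56 and 3.69 CPM in d3_Eff) and Zeb2 (5.77 and 1.92 CPM) were not called between d6_Eff and d3_Eff (adjusted p = 0.161 and 0.101). Much of their fall from MEF was thus present in d3_Eff.

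Nearly all matrix genes of the fibroblast fell, with some transcript left. All 17 genes of matrix crosslinkers, proteases and inhibitors fell (median -5.34), with 13 of 15 collagens (-6.73), 18 of 20 matrix glycoproteins and proteoglycans (-5.57) and 12 of 14 fibroblast surface genes (-5.04), and no member of the 4 lists rose. The collagens summed to 355 and 260.2 CPM in d6_Eff, against 56230 and 13353 CPM in MEF. The matrix glycoproteins and proteoglycans still summed to 1221 and 1009 CPM in d6_Eff, against 47594 and 20350 CPM in MEF. Col1a1, the main chain of type I collagen, had 56.3 and 30.1 CPM in d6_Eff cells, against 20038 and 3655 CPM in MEF (log2 fold change -8.10 ± 0.80, SE, adjusted p = 1.36e-05, -8.73 without d6_Eff replicate 1, -6.38 without MEF replicate 1 and -8.96 without MEF replicate 2). MEF replicate 1 stood several times as high as MEF replicate 2, and both lay far above d6_Eff. Lox, which crosslinks collagen and elastin, was even between the MEF libraries, at 8.91 and 3.17 CPM in d6_Eff cells, against 4849.9 and 5135 CPM in MEF (log2 fold change -9.68 ± 0.78, SE, adjusted p = 3.28e-06, -10.75 without d6_Eff replicate 1). The proteoglycan gene Vcan fell as well (-8.60, or -7.75 without MEF replicate 1 and -9.21 without MEF replicate 2), while Fbln1, a fibulin gene, was at 66.9 and 52.7 CPM in d6_Eff cells, against 50.3 and 25.1 CPM in MEF and not called (adjusted p = 0.0819; adjusted p = 9.80e-05 without MEF replicate 1).

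Surface genes gave the same picture with some left in part. Cdh2, the gene of N-cadherin, had 1.38 and 0.117 CPM in d6_Eff cells, against 146 and 82.1 CPM in MEF (log2 fold change -7.15 ± 0.68, SE, adjusted p = 1.03e-05, -9.96 without d6_Eff replicate 1 and -6.44 without d6_Eff replicate 2), the reverse of Cdh1. Pdgfra, a receptor of mesenchymal cells, had no counts in d6_Eff and 34.6 and 11.4 CPM in MEF, at least 303-fold lower. Cd44, a hyaluronan receptor gene, was lower but still present, at 44.0 and 41.7 CPM in d6_Eff cells, against 356 and 374 CPM in MEF (log2 fold change -3.09 ± 0.28, SE, adjusted p = 8.12e-06). In iPSC, Cd44 was at 0.946 and 0.264 CPM and lower than in d6_Eff (log2 difference -6.02 ± 0.36, SE, adjusted p = 9.21e-07). Vim, the mesenchymal intermediate filament gene, had 540.4 and 376 CPM in d6_Eff cells, against 6322 and 6833 CPM in MEF (log2 fold change -3.84 ± 0.25, SE, adjusted p = 7.08e-07), and was at 108 and 104 CPM in iPSC, again below d6_Eff (adjusted p = 4.75e-05). The fibroblast-defining markers Col1a1, Col1a2, Col3a1, Pdgfra, Pdgfrb, Thy1, Vim and Fn1 were all lower in d6_Eff than in MEF, which matches the labels of both groups.

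All 13 genes of the actin cytoskeleton and contractile apparatus fell (median -3.27). Acta2, smooth muscle actin, had 68.2 and 29.8 CPM in d6_Eff cells, against 4710.1 and 5963 CPM in MEF (log2 fold change -6.76 ± 0.50, SE, adjusted p = 1.84e-06, -7.62 without d6_Eff replicate 1). The calponin gene Cnn1 had 0.846 and 0.176 CPM in d6_Eff cells, against 466 and 529.8 CPM in MEF (log2 fold change -9.82 ± 0.51, SE, adjusted p = 1.83e-07, -11.54 without d6_Eff replicate 1). The groups were separate in both, and Acta2 differed between the d6_Eff replicates by a larger factor than between the MEF replicates. Of 13 TGF-beta and YAP targets, 12 fell and 1, Tgfbr1, was not called (median -3.39). Ctgf, a secreted YAP target, was at 75.9 and 94.3 CPM in d6_Eff cells, against 992 and 949 CPM in MEF (log2 fold change -3.51 ± 0.21, SE, adjusted p = 4.64e-07). The ligand gene Tgfb1 was at 2.81 and 3.52 CPM in d6_Eff cells, against 54.0 and 23.6 CPM in MEF (log2 fold change -3.63 ± 0.41, SE, adjusted p = 3.87e-05, -2.89 without MEF replicate 1). AP-1 and immediate early factors were mixed: 4 of 12 fell, with Fosl2 at 10.2 and 9.16 CPM in d6_Eff cells, against 265 and 172 CPM in MEF (log2 fold change -4.50 ± 0.26, SE, adjusted p = 3.04e-07), 1 rose (Ier2, 1.35) and 7 were not called, Fos, Fosb, Jund and Egr1 among them. DESeq2 called 7 of the 12 lower, and without MEF replicate 1, 4 were called higher, Fos (adjusted p = 0.0295), Jund (adjusted p = 0.0113) and Egr1 (adjusted p = 4.34e-04) among them. Of 26 Hox genes tested, 14 fell and 1 rose (median -1.54), among them the distal limb genes Hoxa13 at 1.25 and 0.822 CPM in d6_Eff cells, against 28.6 and 30.3 CPM in MEF (log2 fold change -4.81 ± 0.44, SE, adjusted p = 1.46e-05) and Hoxd13 at 22.9 and 12.7 CPM in d6_Eff cells, against 126 and 151 CPM in MEF (log2 fold change -2.95 ± 0.28, SE, adjusted p = 8.71e-06, -3.58 without d6_Eff replicate 1). Without d6_Eff replicate 2, 9 fell. The Hox gene that rose, Hoxd9, had 7.26 and 7.58 CPM in d6_Eff cells, against 2.53 and 3.91 CPM in MEF (adjusted p = 0.0365), a call that was lost without either d6_Eff replicate (adjusted p = 0.137 and adjusted p = 0.145), without MEF replicate 1 (adjusted p = 0.133) and in most other fits with a library left out.

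**Figure D3:**
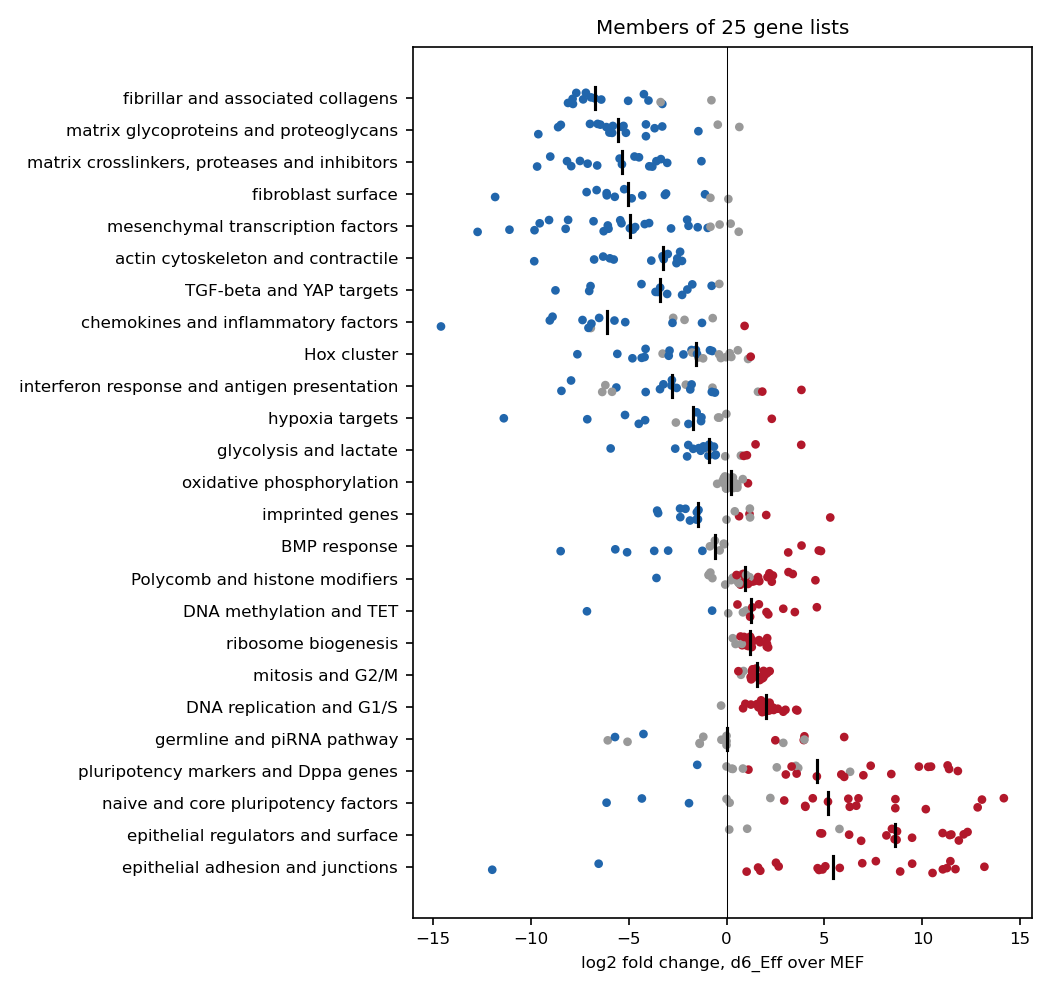
Log2 fold change of d6_Eff over MEF for the tested members of 25 gene lists, 1 point per gene, red where called higher, blue where called lower and grey where not called, with a black bar at the list's median. Matrix and mesenchymal lists lie left of 0 and epithelial and pluripotency lists right of it, while oxidative phosphorylation sits at 0.24.

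The pluripotency network was on in part. Of 21 naive and core pluripotency factors 15 rose and 3 fell (median 5.18, or 4.41 with bounds), and of 25 pluripotency markers 16 rose and 1 fell (4.61, or 3.54). Utf1, a chromatin factor of pluripotent cells, had 121 and 114 CPM in d6_Eff cells with none counted in MEF, at least 1042-fold higher. L1td1, an RNA-binding protein gene, had 544 and 517 CPM in d6_Eff cells, against 0.103 and 0.419 CPM in MEF (log2 fold change 11.37 ± 0.37, SE, adjusted p = 1.32e-08, 10.30 without MEF replicate 1 and 12.15 without MEF replicate 2). Fgf4, an early embryonic growth factor gene, had 97.4 and 111 CPM in d6_Eff cells, against 0.0516 and 0.140 CPM in MEF (1373-fold higher, counting interval 379.7 to 11338 on 2 counts in MEF, adjusted p = 8.82e-09). Nr0b1, a nuclear receptor gene of the network, had 45.7 and 47.6 CPM with none counted in MEF, at least 412-fold higher. Nr5a2, an activator of Pou5f1, had 55.1 and 53.4 CPM and none, at least 480.0-fold higher. Nanog, a core factor, had 67.5 and 58.4 CPM in d6_Eff cells, against 0.723 and 0.279 CPM in MEF (log2 fold change 6.74 ± 0.48, SE, adjusted p = 1.46e-06, 7.80 without MEF replicate 1). In all of these the d6_Eff libraries were well above MEF and close to each other.

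Other members were far below their iPSC level. Esrrb had 2.49 and 3.64 CPM in d6_Eff cells, against 0 and 0.279 CPM in MEF (39.7-fold higher, counting interval 10.7 to 331 on 2 counts in MEF, adjusted p = 9.97e-05). Dppa5a had 4.45 and 7.34 CPM in d6_Eff cells, against 0.258 and 0.977 CPM in MEF (log2 fold change 3.58 ± 0.56, SE, adjusted p = 3.94e-04, 2.58 without MEF replicate 1 and 4.37 without MEF replicate 2). Lin28a was at 3.16 and 2.06 CPM in d6_Eff cells, against 0 and 0.419 CPM in MEF (23.8-fold higher, counting interval 7.91 to 117 on 3 counts in MEF, adjusted p = 0.00144). The Nodal coreceptor gene Tdgf1 was at 3.83 and 5.81 CPM in d6_Eff cells, against 0.0516 and 0.140 CPM in MEF (62.2-fold higher, counting interval 17.0 to 517 on 2 counts in MEF, adjusted p = 3.50e-05). The iPSC libraries held 593 and 604 CPM of Esrrb and 4121 and 4643 CPM of Dppa5a, 417 and 392 of Lin28a and 1190.4 and 1178 of Tdgf1, beside which the levels in d6_Eff were small. Dppa4 had no counts in d6_Eff or MEF and 110.2 and 89.4 CPM in iPSC. In all, 18 of the 21 factors and 21 of the 25 markers were higher in iPSC than in d6_Eff (13.6% of all genes) and 1 marker, Slc7a3, was lower (15.9%, and 29.6% in either direction). In the fit of the 4 compared libraries the calls of Esrrb and Lin28a against MEF were lost. Cdh1 and L1td1 were not called between iPSC and d6_Eff (adjusted p = 0.973 and 0.292), with log2 differences of 0.02 ± 0.23 and -0.31 ± 0.21 (SE).

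The naive factors that fell were Klf2, Tbx3 and Stat3. Klf2 had 1.69 and 2.88 CPM in d6_Eff cells, against 48.0 and 42.6 CPM in MEF (log2 fold change -4.32 ± 0.28, SE, adjusted p = 7.08e-07) and 242 and 267 CPM in iPSC. Tbx3, a T-box factor of stem cell self-renewal, had 0.223 and 0 CPM in d6_Eff cells, against 14.5 and 3.07 CPM in MEF (log2 fold change -6.13 ± 0.88, SE, adjusted p = 2.12e-04, -10.50 without d6_Eff replicate 1, -5.39 without d6_Eff replicate 2, -4.53 without MEF replicate 1 and -6.88 without MEF replicate 2) and 80.0 and 81.9 CPM in iPSC. Stat3, the transducer of LIF, also fell (log2 fold change -1.92 ± 0.32, SE, adjusted p = 6.50e-04, -1.15 without MEF replicate 1 and -2.51 without MEF replicate 2). Both d6_Eff libraries were below both MEF libraries in these 3 genes. No primed epiblast or early lineage gene rose (1 of 10 tested fell, Fgf5, at 2.94 and 1.68 CPM in MEF and no counts in d6_Eff), and Otx2 had no counts in d6_Eff and 1 in MEF. Of 17 germline genes tested, 4 rose (23.5%, beside 20.9% of all genes) and 2 fell, with a median of 0. Those that rose included the meiotic cohesin gene Rec8 at 6.15 and 8.93 CPM in d6_Eff cells, against 0.155 and 0 CPM in MEF (65.0-fold higher, counting interval 22 to 317 on 3 counts in MEF, adjusted p = 9.35e-06) and the piRNA pathway gene Piwil2 at 14.8 and 12.1 CPM in d6_Eff cells, against 0.206 and 1.95 CPM in MEF (log2 fold change 3.98 ± 0.76, SE, adjusted p = 0.00143, 2.79 without MEF replicate 1 and 5.89 without MEF replicate 2). Most of the list, 13 of the 17, was higher in iPSC than in d6_Eff (13.6% of all genes), including members with no call between d6_Eff and MEF.

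The reprogramming factor transcripts were all higher in d6_Eff. The counts per gene cannot tell transcripts of any introduced copies from native ones. Sox2 had 244 and 219 CPM in d6_Eff cells, against 4.28 and 2.65 CPM in MEF (log2 fold change 6.00 ± 0.35, SE, adjusted p = 3.32e-07). Pou5f1 had 72.3 and 104 CPM in d6_Eff cells, against 0.826 and 0.279 CPM in MEF (log2 fold change 7.07 ± 0.48, SE, adjusted p = 9.64e-07, 8.28 without MEF replicate 1). Klf4 was at 223 and 255 CPM in d6_Eff cells, against 70.2 and 25.4 CPM in MEF (log2 fold change 2.31 ± 0.40, SE, adjusted p = 8.30e-04, 3.25 without MEF replicate 1 and 1.67 without MEF replicate 2). Myc was at 240.4 and 238 CPM in d6_Eff cells, against 86.9 and 51.9 CPM in MEF (log2 fold change 1.78 ± 0.23, SE, adjusted p = 1.06e-04), and MEF already held both. None of the 4 was called between d6_Eff and d6_Ineff or d3_Eff. In iPSC, Myc was at 11.0 and 11.1 CPM, lower than in d6_Eff (log2 difference -4.43 ± 0.26, SE, adjusted p = 7.99e-07).

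**Figure D4:**
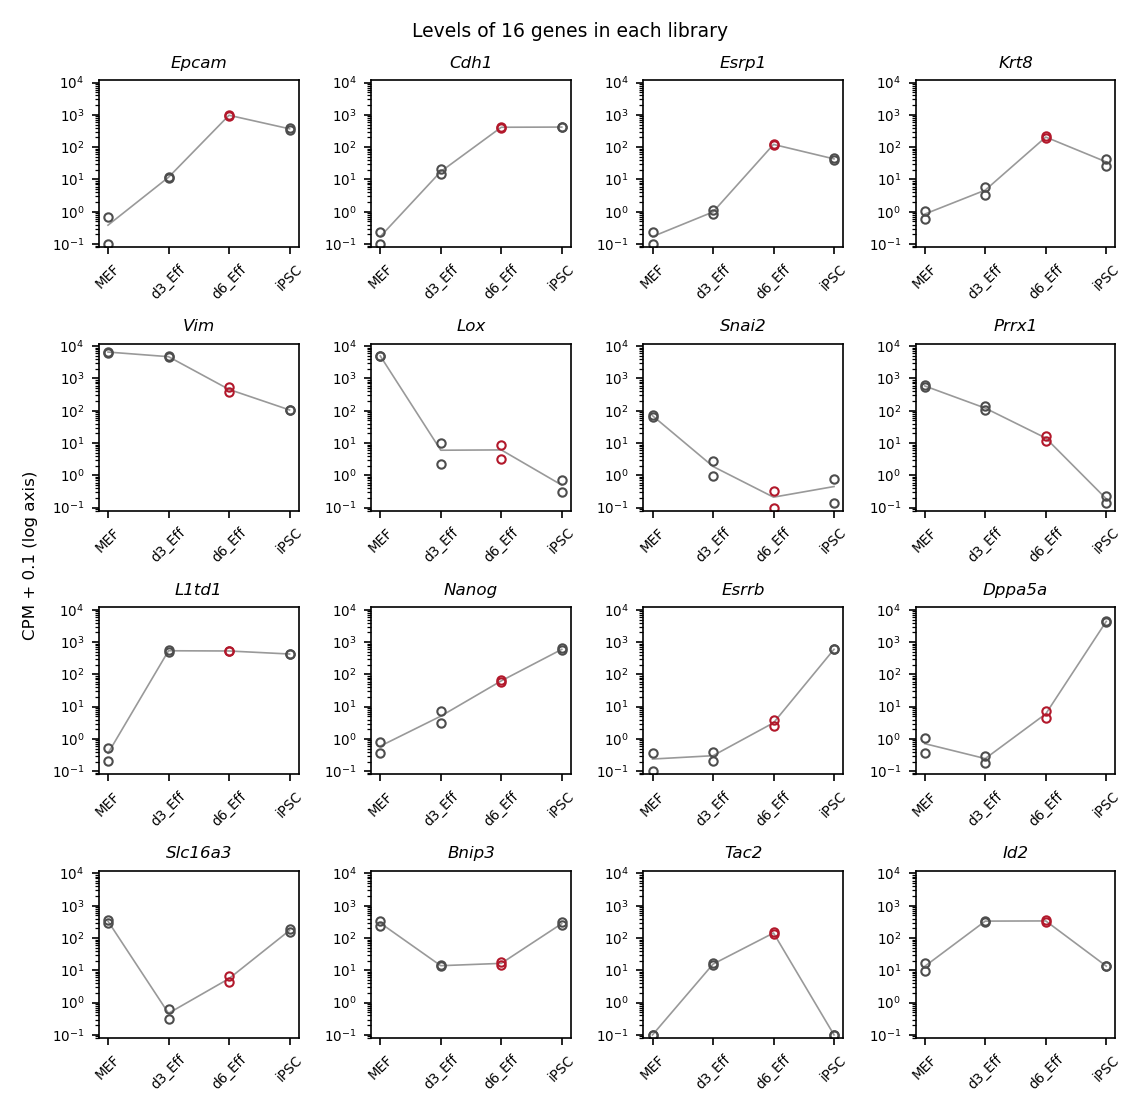
CPM plus 0.1 on a log axis for 16 genes in each library of MEF, d3_Eff, d6_Eff (red) and iPSC, in the order of the course, with a grey line through the group means. Epcam, Cdh1, Esrp1 and Krt8 climb up to d6_Eff, Nanog, Esrrb and Dppa5a are far below iPSC there, Slc16a3 and Bnip3 dip and return, and Tac2 and Id2 are high in d6_Eff and low at both ends.

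Proliferation genes rose together. Of 24 genes of DNA replication and G1/S 23 rose (median 2.00), of 20 mitosis genes 18 (1.54) and of 20 ribosome biogenesis genes 17 (1.22), with none lower. Mcm5, a subunit of the replicative helicase, had 346 and 386 CPM in d6_Eff cells, against 77.1 and 85.6 CPM in MEF (log2 fold change 2.17 ± 0.16, SE, adjusted p = 2.12e-06). Ung, a uracil-DNA glycosylase gene, had 90.4 and 96.6 CPM in d6_Eff cells, against 8.00 and 7.12 CPM in MEF (log2 fold change 3.62 ± 0.20, SE, adjusted p = 2.24e-07). Ccnb1, the mitotic cyclin B1 gene, was at 199 and 168 CPM in d6_Eff cells, against 50.4 and 49.0 CPM in MEF (log2 fold change 1.88 ± 0.17, SE, adjusted p = 8.62e-06). The libraries of each group agreed closely in these 3 genes and the groups did not overlap. Of the replication genes 1 (Ccne2) and of the mitosis genes 2 (Cenpe and Mki67) were not called. Mki67 was at 65.3 and 123 CPM in d6_Eff cells, against 90.6 and 10.9 CPM in MEF, with the MEF replicates far apart, and was called without MEF replicate 1 (adjusted p = 8.66e-06), as were Cenpe (adjusted p = 4.19e-06) and, lower, Ccne2 (adjusted p = 0.0323). Fbl, the methyltransferase of ribosomal RNA, had 206 and 231 CPM in d6_Eff cells, against 51.3 and 53.2 CPM in MEF (log2 fold change 2.07 ± 0.22, SE, adjusted p = 2.78e-05). Without d6_Eff replicate 1, 11 ribosome biogenesis genes were called. Against d3_Eff the medians of the 3 lists were 0.06, -0.02 and 0.08, no gene was higher in d6_Eff and 1 was lower, Rrm1 (log2 difference -0.86 ± 0.17, SE, adjusted p = 0.00755), a call lost without d6_Eff replicate 2. Against d6_Ineff, 16 replication, 9 mitosis and 12 ribosome biogenesis genes were higher in d6_Eff (5.38% of all genes) and none lower.

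Brakes of the cell cycle were mixed, with 7 of 23 CDK inhibitors, D cyclins and p53 targets higher and 7 lower (median -0.03; 4 lower without d6_Eff replicate 2). Each share was 30.4%, beside 20.9% of all genes higher and 21.7% lower. Cdkn2b, an inhibitor of CDK4 and CDK6, fell to 10.6 and 11.5 CPM in d6_Eff cells, against 179 and 220.4 CPM in MEF (log2 fold change -4.17 ± 0.33, SE, adjusted p = 3.06e-06). Cdkn1a (p21) had 286 and 248 CPM in d6_Eff cells, against 499 and 495 CPM in MEF (log2 fold change -0.90 ± 0.16, SE, adjusted p = 8.48e-04). Cdkn2a, which encodes p16 and p19Arf, was at 118 and 147 CPM in d6_Eff cells, against 173 and 185 CPM in MEF and not called (adjusted p = 0.145). Perp, a p53 target of desmosomal adhesion, rose to 399 and 385 CPM in d6_Eff cells, against 4.28 and 10.1 CPM in MEF (log2 fold change 5.84 ± 0.37, SE, adjusted p = 7.08e-07), and Rb1 (2.21) and Trp53 (1.11) rose. Among the D cyclins Ccnd1 (adjusted p = 0.407) and Ccnd2 (adjusted p = 0.492) were not called and Ccnd3 fell (-0.63). Ccnd1 was called without MEF replicate 1 (adjusted p = 0.0490), and the calls of Cdkn1a, Trp53 and Ccnd3 were lost in the fit of the 4 compared libraries.

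Metabolic genes split by pathway. Of 21 glycolysis and lactate genes 14 fell and 4 rose (median -0.91), and of 14 hypoxia targets 9 fell and 1 rose (-1.74). In both lists the share that fell was above the 21.7% of all genes. The share that rose was below the 20.9% of all genes, so the rises named below are single genes and no trend of the list. Ldha, which makes lactate, had 738 and 732 CPM in d6_Eff cells, against 2293 and 3641 CPM in MEF (log2 fold change -2.01 ± 0.24, SE, adjusted p = 4.91e-05). Slc16a3, its exporter gene, had 6.59 and 4.29 CPM in d6_Eff cells, against 374 and 289 CPM in MEF (log2 fold change -5.92 ± 0.32, SE, adjusted p = 2.08e-07). Bnip3, a mitophagy gene induced by hypoxia, was at 15 and 17.7 CPM in d6_Eff cells, against 242 and 341 CPM in MEF (log2 fold change -4.16 ± 0.24, SE, adjusted p = 3.24e-07). Both d6_Eff libraries lay below both MEF libraries in each of the 3. Car9, a carbonic anhydrase gene induced by hypoxia, had no counts in d6_Eff and 18.1 and 15.9 CPM in MEF, at least 224-fold lower. Hif1a itself fell (log2 fold change -1.52 ± 0.18, SE, adjusted p = 6.18e-05). The glucose transporter gene Slc2a3 went the other way, with 298 and 269.7 CPM in d6_Eff cells, against 18.2 and 22.3 CPM in MEF (log2 fold change 3.82 ± 0.22, SE, adjusted p = 3.69e-07), as did Hk2 (1.04) and the lactate transporter gene Slc16a1 (1.48), while Slc2a1 fell (-0.92). The falls were not kept to the end: 19 of the 21 glycolysis genes and 10 of the 14 hypoxia targets were higher in iPSC than in d6_Eff (13.6% of all genes) and none lower, with Ldha at 2695 and 2809.5 CPM in iPSC. In a fit of the 4 compared libraries alone, 8 glycolysis genes were called lower in d6_Eff and the call of Hk2 was lost.

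Oxidative phosphorylation genes gave no group-wide call: 2 of 26 rose, Ndufb3 and Ndufs1, and both calls were lost without either d6_Eff replicate (adjusted p = 0.0524 and adjusted p = 0.126 for Ndufb3, adjusted p = 0.274 and adjusted p = 0.108 for Ndufs1). That of Ndufs1 was also lost without MEF replicate 2 (adjusted p = 0.0646), and both in the fit of the 4 compared libraries. Atp5a1, the alpha subunit of ATP synthase, was at 1614 and 1640.3 CPM in d6_Eff cells, against 943 and 1349 CPM in MEF and not called (adjusted p = 0.0694; adjusted p = 0.00128 and higher without MEF replicate 2). Cox4i1 was at 739 and 832 CPM in d6_Eff cells, against 477 and 1255 CPM in MEF and not called (adjusted p = 0.806). It was called lower in d6_Eff without MEF replicate 1 (log2 fold change -0.66, adjusted p = 0.0217) and higher without MEF replicate 2 (log2 fold change 0.62, adjusted p = 0.0361). The count moved with the MEF libraries: without MEF replicate 2, in which short transcripts and Lars2 stood high, 15 of the 26 were called higher in d6_Eff, and without MEF replicate 1 none was higher and 5 were lower. In one-carbon metabolism 5 of 14 genes rose (35.7%, beside 20.9% of all genes) and 6 fell (42.9%, beside 21.7%). Shmt1 had 206 and 194 CPM in d6_Eff cells, against 14.4 and 14.9 CPM in MEF (log2 fold change 3.77 ± 0.18, SE, adjusted p = 1.19e-07) and Mthfd1 548 and 639 CPM in d6_Eff cells, against 67.8 and 32.9 CPM in MEF (log2 fold change 3.55 ± 0.30, SE, adjusted p = 4.36e-06, 4.18 without MEF replicate 1), both cytosolic enzymes, while the mitochondrial enzyme genes Mthfd2 (-1.57) and Shmt2 (-0.79) fell. The glycine cleavage gene Gldc rose, at 35.9 and 34.7 CPM in d6_Eff cells, against 0.103 and 3.07 CPM in MEF (log2 fold change 4.92 ± 0.77, SE, adjusted p = 3.74e-04, 3.53 without MEF replicate 1 and 8.24 without MEF replicate 2). The serine synthesis genes Phgdh (-1.05), Psat1 (-1.66) and Psph (-1.10) fell. The calls of Shmt2 and Psph were lost in the fit of the 4 compared libraries.

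Chromatin genes were mostly higher. Of 34 Polycomb and histone modifier genes 21 rose and 1 fell (median 0.97), and of 14 DNA methylation and TET genes 9 rose and 2 fell (1.26). Cbx7, a Polycomb subunit of embryonic stem cells, had 45.6 and 45.9 CPM in d6_Eff cells, against 1.70 and 2.37 CPM in MEF (log2 fold change 4.54 ± 0.24, SE, adjusted p = 1.96e-07). The histone methyltransferase gene Ezh2 had 205 and 171 CPM in d6_Eff cells, against 42.6 and 39.8 CPM in MEF (log2 fold change 2.19 ± 0.18, SE, adjusted p = 3.45e-06). Jarid2, which guides the Ezh2 complex, was at 93.0 and 109.5 CPM in d6_Eff cells, against 15.5 and 6.28 CPM in MEF (log2 fold change 3.17 ± 0.35, SE, adjusted p = 2.95e-05, 4.02 without MEF replicate 1). Tet1, a methylcytosine dioxygenase gene, had 36.0 and 39.0 CPM in d6_Eff cells, against 3.51 and 3.07 CPM in MEF (log2 fold change 3.49 ± 0.22, SE, adjusted p = 7.08e-07). The de novo methyltransferase gene Dnmt3b had 37.1 and 41.2 CPM in d6_Eff cells, against 2.37 and 0.279 CPM in MEF (log2 fold change 4.61 ± 0.51, SE, adjusted p = 3.14e-05, 7.11 without MEF replicate 1 and 3.94 without MEF replicate 2). In these 5 genes the d6_Eff replicates agreed and lay above MEF. Dnmt3l, a methyltransferase cofactor gene, was at 0 and 0.470 CPM in d6_Eff cells, against 0.103 and 0.140 CPM in MEF with no call, and at 275 and 254 CPM in iPSC. Without d6_Eff replicate 1, 12 Polycomb and histone genes were called higher, without MEF replicate 2, 5 were called lower, and without d6_Eff replicate 2, 4 DNA methylation genes were higher. Smarca2, a chromatin remodelling ATPase gene, was at 131 and 151 CPM in d6_Eff cells, against 33.5 and 22.9 CPM in MEF (log2 fold change 2.31 ± 0.29, SE, adjusted p = 8.78e-05) and at 0.473 and 0.0659 CPM in iPSC.

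Of 18 imprinted genes tested, 10 fell (55.6%, beside 21.7% of all genes) and 4 rose (22.2%), with a median of -1.45. The share that rose was near the 20.9% of all genes. Nnat, a neuronatin gene, had 97.1 and 94.6 CPM in d6_Eff cells, against 2.37 and 2.51 CPM in MEF (log2 fold change 5.30 ± 0.26, SE, adjusted p = 1.38e-07). Igf2, an embryonic growth factor gene, had 1354 and 1107 CPM in d6_Eff cells, against 389 and 213 CPM in MEF (log2 fold change 2.03 ± 0.33, SE, adjusted p = 4.55e-04). Igf2 was at 4262 and 5103 CPM in d6_Ineff, above d6_Eff (log2 difference -1.93 ± 0.32, SE, adjusted p = 0.00273). Necdin (Ndn) fell, with 7.17 and 9.16 CPM in d6_Eff cells, against 88.2 and 95.6 CPM in MEF (log2 fold change -3.49 ± 0.21, SE, adjusted p = 4.47e-07), as did Mest (-2.10) and Peg3 (-1.52, or -0.91 without MEF replicate 1). Without d6_Eff replicate 1, 2 members were called higher.

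Most chemokine and inflammatory genes fell, and so did most genes of the interferon response. Of 16 chemokines and inflammatory factors 11 fell and 1 rose (median -6.12, or -5.26 with bounds). Il1rl1, the interleukin-33 receptor gene, had 0.0445 and 0 CPM in d6_Eff cells, against 679 and 879.7 CPM in MEF (28949-fold lower, counting interval 5195 to 1143498 on 1 count in d6_Eff, adjusted p = 2.32e-08). Cxcl12, a chemokine gene of stromal cells, was at 4.63 and 2.41 CPM in d6_Eff cells, against 334 and 314 CPM in MEF (log2 fold change -6.51 ± 0.45, SE, adjusted p = 1.12e-06, -7.20 without d6_Eff replicate 1). Ptgs2, which makes prostaglandins, was at 1.51 and 0 CPM in d6_Eff cells, against 509 and 352 CPM in MEF (log2 fold change -9.03 ± 0.84, SE, adjusted p = 8.68e-06, -16.07 without d6_Eff replicate 1 and -8.23 without d6_Eff replicate 2). The groups were separate by a wide margin in these 3. Of 21 interferon response and antigen presentation genes tested 13 fell and 2 rose (-2.79, or -2.50 with bounds). B2m, the light chain of MHC class I, had 93.5 and 58.4 CPM in d6_Eff cells, against 437 and 615 CPM in MEF (log2 fold change -2.79 ± 0.29, SE, adjusted p = 2.01e-05), while Bst2, an interferon-induced antiviral gene, rose to 327 and 364 CPM in d6_Eff cells, against 18.7 and 30.4 CPM in MEF (log2 fold change 3.83 ± 0.30, SE, adjusted p = 2.47e-06).

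Of 29 FGF, Wnt and IGF genes tested, 16 fell (55.2%) and 7 rose (24.1%), with the share that rose near the 20.9% of all genes (median -1.50). Those that rose included feedback genes and targets of FGF-ERK signalling: Spry4 had 164 and 171 CPM in d6_Eff cells, against 13.3 and 12.7 CPM in MEF (log2 fold change 3.69 ± 0.17, SE, adjusted p = 1.04e-07), Dusp6 228 and 234 CPM in d6_Eff cells, against 32.5 and 25.4 CPM in MEF (log2 fold change 2.99 ± 0.22, SE, adjusted p = 1.69e-06) and Etv5 270.2 and 265 CPM in d6_Eff cells, against 24.0 and 9.77 CPM in MEF (log2 fold change 3.95 ± 0.34, SE, adjusted p = 4.99e-06, 4.79 without MEF replicate 1). The Wnt antagonist gene Sfrp1 rose too (log2 fold change 3.31 ± 0.32, SE, adjusted p = 1.22e-05, 4.00 without MEF replicate 1). Those that fell included Igfbp7 at 2.41 and 1.12 CPM in d6_Eff cells, against 649 and 468 CPM in MEF (log2 fold change -8.28 ± 0.37, SE, adjusted p = 7.39e-08, -9.09 without d6_Eff replicate 1), Igfbp4 (-7.09) and the mesenchymal ligand gene Fgf7 (-6.51, or -7.78 without d6_Eff replicate 1). Among 15 BMP response genes 4 rose (26.7%) and 6 fell (median -0.59). Id2, an inhibitor of helix-loop-helix factors, had 369.9 and 306 CPM in d6_Eff cells, against 9.45 and 16.9 CPM in MEF (log2 fold change 4.71 ± 0.31, SE, adjusted p = 8.17e-07), and Id1 (3.15) and Id4 (3.83) rose, while the BMP antagonist genes Grem1 (-5.68) and Fst (-5.08, or -7.36 without d6_Eff replicate 1 and -4.39 without d6_Eff replicate 2) and the ligand gene Bmp4 (-3.69, or -4.29 without d6_Eff replicate 1) fell. Id2 was at 13.2 and 13.6 CPM in iPSC, lower than in d6_Eff (log2 difference -4.66 ± 0.31, SE, adjusted p = 1.44e-06). Against d6_Ineff, 11 of the 15 BMP response genes were lower in d6_Eff (9.25% of all genes) and none higher, with a median log2 difference of -1.39.

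By the rule for the largest changes (every library of the higher group at 5 CPM or more), the 10 largest rises were Tac2, Utf1, Ceacam1, Dmrtc2, Cldn11, Cdh1, Pax7, Nr5a2, S100a14 and Nr0b1, of which all but Cdh1 had no counts in MEF. These folds are set by the level in d6_Eff. Tac2, a tachykinin neuropeptide gene, had 153 and 133 CPM in d6_Eff cells, at least 1265-fold higher. The adhesion gene Ceacam1 was at 79.2 and 71.4 CPM (at least 666-fold), the tight junction gene Cldn11 at 64.9 and 54.8 CPM (at least 529.6-fold) and Pax7, a factor of muscle and neural crest, at 60.7 and 57.6 CPM (at least 523-fold). The 10 largest falls were Il1rl1, Edil3, Lrrc15, Tnmd, Prkg2, Fabp4, Mogat2, Osr1, Nipal1 and Tnfrsf23, of which all but Il1rl1 had no counts in d6_Eff. Edil3, a matrix protein gene, was at 97.3 and 126 CPM in MEF, at least 1468-fold lower in d6_Eff, and tenomodulin (Tnmd), a tendon gene, at 62.9 and 59.3 CPM in MEF, at least 804-fold lower.

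Some genes of d6_Eff lay outside both ends of the course. Of the 16240 genes tested, 20.9% were called higher in d6_Eff than in MEF and 15.9% lower in iPSC than in d6_Eff. In the other direction the shares were 21.7% and 13.6%, and the counts that follow are subsets of these calls. Leaving out predicted genes, both d6_Eff libraries held 5 CPM or more and lay above every MEF and iPSC library in 692 genes called against both groups, and lay below in 469, where MEF and iPSC held 5 CPM or more. By the same level rule, the 6 with the largest excess over both ends were Tac2, Pax7, Ly6d, Trim9, Atp12a and Sv2b, of which Tac2, Ly6d, Trim9, Atp12a and Sv2b had no counts in iPSC. Ly6d, a surface gene of the Ly6 family, was at 20.4 and 28.0 CPM in d6_Eff, with none counted in MEF (at least 214-fold higher). Atp12a, a proton pump subunit, was at 50.7 and 39.2 CPM in d6_Eff cells, against 0.0516 and 0 CPM in MEF (1214-fold higher, counting interval 218 to 47974 on 1 count in MEF, adjusted p = 5.84e-07). Of these 6, Ly6d and Pax7 were higher in d6_Eff than in d6_Ineff (adjusted p = 0.0135 and 0.00204), as was Sv2b (0.0156), while Tac2, Trim9 and Atp12a were not called; the calls of Ly6d and Sv2b were lost without either d6_Eff replicate. The 6 farthest below both ends were Lrrc15, Gjb5, Dact1, Pde8a, Slc4a4 and Pdk4. Pdk4, a kinase gene that holds back pyruvate oxidation, had 0.223 and 0 CPM in d6_Eff cells, against 18.3 and 23.0 CPM in MEF (log2 fold change -7.30 ± 0.67, SE, adjusted p = 8.10e-06, -11.69 without d6_Eff replicate 1 and -6.58 without d6_Eff replicate 2) and 22.6 and 24.6 CPM in iPSC (log2 difference 7.50 ± 0.67, SE, adjusted p = 1.18e-05).

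Markers of other cell types were read by list. The leukocyte list summed to 208 and 210.0 CPM in d6_Eff, against 9.55 and 18.7 CPM in MEF, nearly all of it Laptm5, a lysosomal protein gene at 198 and 201 CPM in d6_Eff cells, against 0.413 and 0.977 CPM in MEF (log2 fold change 8.38 ± 0.31, SE, adjusted p = 2.53e-08, 7.68 without MEF replicate 1). Of 6 tested members 2 rose (33.3%, beside 20.9% of all genes), with a list median of -1.19. The call of the member other than Laptm5 was lost in the fit of the 4 compared libraries. Ptprc, the defining leukocyte gene, had 0 counts in d6_Eff and 9 in MEF. The endothelial list summed to 125 and 131 CPM in d6_Eff, against 47.6 and 26.9 CPM in MEF, with 6 of 9 tested members higher (66.7%, beside 20.9% of all genes) and none lower, at a median log2 fold change of 3.08. The angiopoietin receptor gene Tek made up most of the sum, at 71.6 and 70.8 CPM in d6_Eff cells, against 2.01 and 1.81 CPM in MEF (log2 fold change 5.19 ± 0.25, SE, adjusted p = 1.38e-07). The claudin gene Cldn5 was at 5.92 and 5.81 CPM in d6_Eff and the receptor gene Tie1 at 1.43 and 3.11 CPM, neither with a count in MEF (at least 51.9-fold and 20.1-fold higher). Pecam1 was at 0.0891 and 0.235 CPM in d6_Eff cells, against 0.0516 and 0 CPM in MEF and not called, and Cdh5 rose to 1.69 and 1.12 CPM in d6_Eff cells, against 0.206 and 0 CPM in MEF (adjusted p = 0.0155), a call lost without d6_Eff replicate 1 (adjusted p = 0.0733) and in the fit of the 4 compared libraries. The skeletal muscle list summed to 63.1 and 59.3 CPM in d6_Eff and 73.1 and 84.3 CPM in MEF. Of 6 tested members 1 was higher, Pax7 (16.7%, beside 20.9% of all genes), and 2 were lower (33.3%, beside 21.7%). Myod1 had 4 counts in d6_Eff and 3 in MEF. The neural and glial list summed to 36.3 and 29.3 CPM in d6_Eff and 167 and 132 CPM in MEF. Of 11 tested members 4 were higher (36.4%), each under 5 CPM, and 2 were lower (18.2%). The keratinocyte list summed to 32.6 and 50.3 CPM in d6_Eff and 71.8 and 71.6 CPM in MEF. None of 3 tested members rose and 1 fell (33.3%), and Krt5 had 0 counts in both groups. The part of other cell types in the results was not tested.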

How the data were processed

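Poly-A RNA-seq counts of 12 libraries in 6 groups of 2 were used, as raw HTSeq-style counts per gene that the authors deposited; summary lines that name no gene (reads outside genes, ambiguous and the like) were set aside. The submitters' processing notes name STAR 2.3.0, HTSeq 0.6.0, Picard 1.100 and mm9 without saying which step each served, and the names of the deposited tables describe the counting as not stranded. Samples were grouped by title. All 12 libraries were fitted with edgeR 4.0.16 (limma 3.58.1, R 4.3.3): TMM scaling, filterByExpr on the 6 groups (16240 genes kept), a mean per group, robust quasi-likelihood F-tests and Benjamini-Hochberg adjustment over all genes tested, called under 0.05. The residual degrees of freedom were 6 and the common biological coefficient of variation 28.0%. Standard errors were taken from the fold change and its F statistic (log2 fold change over root F). The code was tested on simulated data. Alternatives were DESeq2 1.42.0, other scalings, no filter, the replicate number as a block, only the 4 compared libraries, a test against a log2 change of 1, and each library left out.

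The gene lists, of 38 kinds, and their members were chosen with earlier results of these data known. The text names, by rule, the 10 largest called rises and falls, the 6 genes farthest above and below both MEF and iPSC, a list of lead genes, and up to 3 called members per list and direction (234 genes); 55 more were chosen after their values were seen. List symbols Hoxd4, Cdkn2d and Psmb9 matched no gene. Names, strand overlaps and promoters come from Ensembl and RefSeq tables of another build than the counts, so the promoter coordinates are those of GRCm38.p6. Depth and the precision it gives stand with the results. Single values of some members that the lists count are not reported here.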

Additional observations from a re-analysis of the deposited data

How the results depend on the processing

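No gene called between d6_Eff and MEF was called in the opposite direction under any alternative. Of these calls 98.1% were kept in the same direction with DESeq2, 97.7% with its size factors in edgeR, 98.1% with upper-quartile scaling, 93.8% with no filter, 95.7% with the replicate number as a block, 71.1% to 94.1% with 1 library left out, 80.7% without the second libraries of both groups (chosen after seeing the data), 56.8% with only the 4 compared libraries (fewer libraries and 13910 genes tested) and 49.8% in the test against a log2 change of 1. With 1 library left in an arm, that library is assumed to vary like the other groups. The test against a log2 change of 1 sets a higher bar by construction, and in it the calls of Cdkn1a, Ccnd3, Trp53, Hk2, Psph, Phgdh, Shmt2, Slc2a1, Peg3, Ier2, Hoxd9, Ndufb3 and Ndufs1 were among those lost. Where values moved by more than 1.5 times, the cause was not tested.

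The test against a log2 change of 1 gave 1543 genes higher and 1899 lower in d6_Eff than in MEF, 134 and 488 against d6_Ineff, and 281 and 221 against d3_Eff. It gave 952 higher and 1232 lower in iPSC than in d6_Eff, 2276 and 2722 in iPSC than in MEF, 1152 and 1452 in d3_Eff than in MEF, and 1167 and 957 in d6_Ineff than in MEF. The 4 compared libraries alone gave 1607 higher in d6_Eff than in MEF. Against d6_Ineff 1473 were higher without the second libraries of d6_Eff and MEF, and against d3_Eff 1121 were higher with DESeq2 and 1034 with no filter. With 1 library left out, the counts of higher and lower genes ran from 2236 to 4422 and 2686 to 4262 for d6_Eff against MEF, 206 to 2126 and 675 to 2673 against d6_Ineff, 328 to 1332 and 291 to 1626 against d3_Eff, 1177 to 3352 and 1604 to 3622 for iPSC against d6_Eff, 3042 to 4694 and 3296 to 4806 for iPSC against MEF, 1969 to 4164 and 1875 to 3833 for d3_Eff against MEF, and 1686 to 4134 and 1408 to 3103 for d6_Ineff against MEF.

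The distances from d6_Eff to MEF, from iPSC to d6_Eff and from iPSC to MEF were 2.79, 2.37 and 3.22 with a prior count of 0.5, 2.02, 1.64 and 2.36 with a prior count of 5, 2.03, 1.51 and 2.39 over genes with a mean of at least 10 CPM, and 1.05, 0.720 and 1.29 as median absolute differences. The first was 2.14 without the second libraries of d6_Eff and MEF. With 1 library left out they ran from 2.23 to 2.39, 1.87 to 1.96 and 2.63 to 2.76. The d6_Eff to MEF distance was larger than the iPSC to d6_Eff distance in each of these settings. In the fit of the 4 compared libraries alone, called members of lists fell to 11 (Polycomb and histone genes higher), 8 (Hox genes lower), 8 (ribosome biogenesis higher), 3 (DNA methylation higher) and 2 (imprinted genes higher).

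Replicates share numbers across groups. The deviations of same-numbered libraries from their group means correlated by 0.0441 between d6_Eff and MEF (Pearson's r over genes). Over all group pairs the values ran between -0.10 and 0.21. With so few libraries per group, these values neither show nor exclude that the numbers pair the samples. With the replicate block the counts of higher and lower genes were 3383 and 3400 for d6_Eff against MEF, 817 and 1504 against d6_Ineff, 670 and 793 against d3_Eff, 2056 and 2568 for iPSC against d6_Eff, 4100 and 4221 for iPSC against MEF, 2946 and 2906 for d3_Eff against MEF, and 2529 and 2334 for d6_Ineff against MEF.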
